A study of Mus musculus with 24 samples.

Results

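The comparison set enriched-environment mice of the GH arm (GH_EE, 4 libraries) against the GH mice of the WT arm (GH_WT, 4 libraries) by bulk RNA sequencing of the medial prefrontal cortex. The 8 libraries were taken by their column names from a count table of 24 libraries in 6 groups, and every difference below is GH_EE minus GH_WT, so that the untreated GH_Con group entered no fold change. All 8 libraries carry the genotype label 5xFAD, the same tissue label and 1 shared batch label, and they differ by the treatment label, EE or WT. The sources used here do not give what GH stands for, what the WT label means in a series labelled 5xFAD throughout, or the age of the mice. The title of the series names an enriched environment, resocialization and social isolation. Libraries of a group are numbered 1 to 4, with no label that ties each one to a separate animal, and the p-values therefore cover only the spread from library to library, which may be technical. The same arms in socially isolated mice (SI_EE and SI_WT, 4 libraries each) served as the independent second pair.

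An enriched environment is a housing with more space, objects, running wheels or company than a standard cage, and in rodents it is known for effects on neuronal plasticity, growth factors and glia. 5xFAD mice express mutant human APP, beside another transgene, from the Thy1 promoter, which is active in neurons, and develop amyloid plaques with reactive microglia and astrocytes. The medial prefrontal cortex lies beside the striatum and in front of the thalamus, so a dissection can hold tissue of either, and marker genes of such neighbours were read in every library.

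Depth was 34559842 to 39586858 counts per library, and 20354 genes passed the filter on low counts. Sex is absent from the labels and was read from the counts. Reads of Xist, the RNA that silences an X chromosome, numbered 22692 or more in GH_EE 2, GH_EE 3, GH_WT 3 and GH_WT 4, and those of Y-linked genes 4429 or more in GH_EE 1, GH_EE 4, GH_WT 1 and GH_WT 2, so each group held 2 female and 2 male libraries. Cortical identity was present in all 8: Neurod6, a pyramidal neuron factor, lay at 81.9 to 93.3 CPM (read counts scaled to the library's TMM-adjusted total) in GH_EE and 61.7 to 85.3 CPM in GH_WT. The cerebellar granule cell gene Gabra6 was at most 1.13 CPM and the Purkinje cell gene Pcp2 at most 0.489 CPM, while the mean of the cerebellar list, which also holds genes of other regions such as Zic4, was 1.61 to 2.90 log2 CPM. GH_WT 2 and GH_WT 4 held thalamus and habenula transcripts that the other 6 libraries did not hold at that level, and results that rest on them are given with and without them.

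A transgene was read first, as a check of the WT label. The human APP entry, counted beside the mouse genes, lay at 1800, 2650, 3840 and 1890 CPM in GH_EE 1 to 4 and at 3000, 2770, 3450 and 2350 CPM in GH_WT 1 to 4. The group means were 2540 ± 944 and 2890 ± 462 CPM (SD, n = 4), a difference of -348 CPM with a two-sided exact permutation p of 0.514. The smallest p that the 70 assignments of 4 and 4 allow is 0.0286. All 4 GH_WT libraries carried human APP reads, within the range of GH_EE. The sources used here do not say which sequences were counted under this entry. Mouse App, the endogenous amyloid precursor gene, lay at 1420 to 1580 CPM in GH_EE and 1400 to 1510 CPM in GH_WT (log2 fold change 0.05, SE 0.18). Thy1, whose promoter drives the transgenes, lay at 1180, 1610, 2010 and 1280 CPM in GH_EE and 1970, 1450, 1770 and 1520 CPM in GH_WT (log2 fold change -0.14, SE 0.29).

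Across all 20354 genes tested with edgeR's quasi-likelihood test, 1 gene passed a Benjamini-Hochberg adjusted p of 0.05 (0.00491% of genes), higher in GH_EE. At an unadjusted p under 0.05 there were 742 genes (3.65%), 280 higher (1.38%) and 462 lower (2.27%) in GH_EE, where 5% of the genes tested would be 1018. The 4 GH_EE values all lay above the 4 GH_WT values for 363 genes (1.78%) and all below for 426 (2.09%), 789 in all (3.88%). The median log2 fold change of all genes was -0.01. DESeq2 called 7 genes, limma-voom 0, and a fit of these 8 libraries alone 3, none of which was the gene that the fit on all 24 libraries called.

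**Figure D1:**
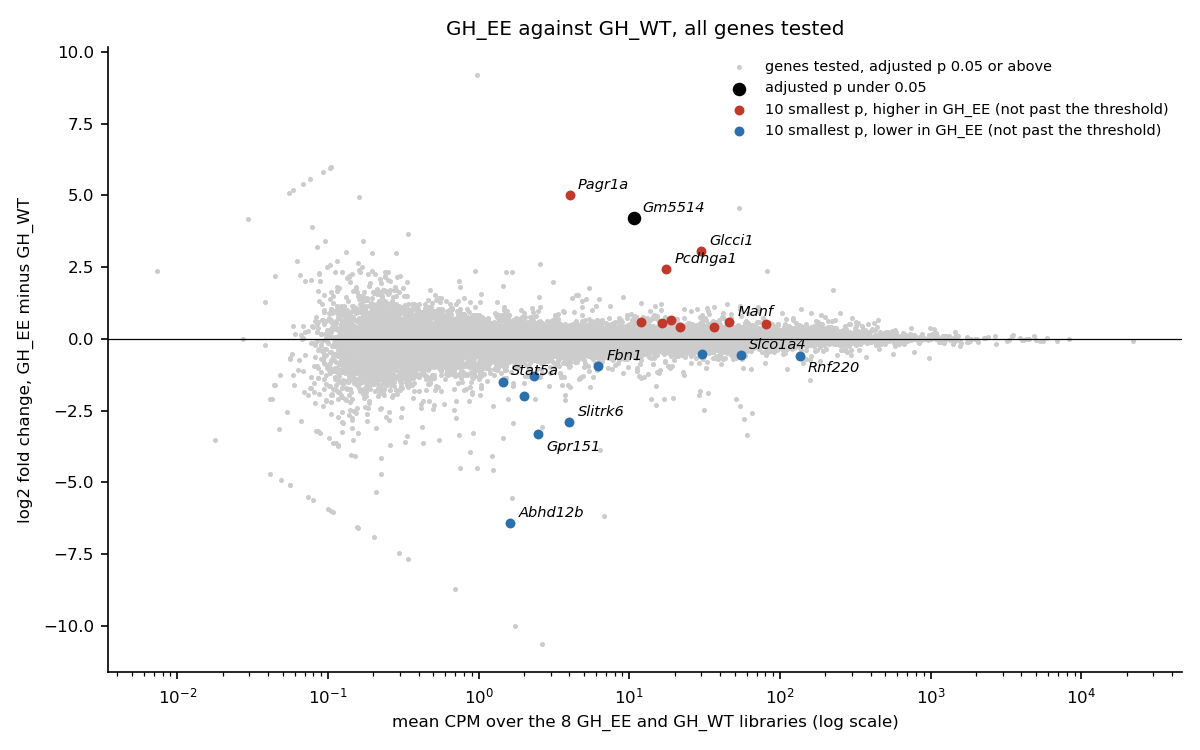
Log2 fold change (GH_EE minus GH_WT) of each gene tested against its mean CPM over the 8 libraries on a log axis. The black point is Gm5514, the 1 gene with an adjusted p under 0.05, and red and blue points are the 10 named genes with the smallest p in each direction, none of which passed.

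The called gene was Gm5514, a processed pseudogene on chromosome 19 (chr19:21937380-21938381, plus strand, GRCm38). It lay at 25.9, 27.9, 0.965 and 26.5 CPM in GH_EE 1 to 4 and at 1.13, 1.02, 0.914 and 1.31 CPM in GH_WT 1 to 4. GH_EE 3 was at the level of GH_WT, so the groups overlapped although the other 3 GH_EE libraries stood far above every GH_WT library. The log2 fold change was 4.21 (SE 0.58, edgeR adjusted p = 0.00604). Every other library of the series, GH_Con, SI_Con, SI_EE and SI_WT, read it at 1.14 CPM or less. Its adjusted p was 0.0743, 0.0787 and 0.0518 without GH_WT 2, GH_WT 3 or GH_WT 4, 0.30 without GH_WT 2 and GH_WT 4, and 0.690 in the fit of these 8 libraries alone. The log2 fold change in these 5 fits was 4.18, 4.14, 4.31, 4.32 and 4.21. It falls outside the rule for named genes, which leaves out symbols of this form, and was named after its value was seen.

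The sequence of Gm5514 is a near copy of Ldhb, the lactate dehydrogenase subunit of heart and brain: its 1002 bases aligned to the Ldhb transcript over their whole length with 98.0% identity and 20 mismatches. Ldhb itself lay at 380, 305, 312 and 395 CPM in GH_EE and 463, 312, 315 and 327 CPM in GH_WT (log2 fold change -0.02, SE 0.20). With the reads of both genes summed, the values were 406, 333, 313 and 421 CPM against 464, 313, 315 and 328 CPM. The log2 fold change was then 0.05 (SE 0.20, edgeR adjusted p = 1), and 0 genes passed the threshold anywhere, with 733 at an unadjusted p under 0.05. The reads under Gm5514 were at most 27.9 CPM, beside at least 305 CPM under Ldhb in each of these libraries, so the sum follows Ldhb whatever Gm5514 does. The sources used here do not say how the authors' counting divided reads between the copies.

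**Figure D2:**
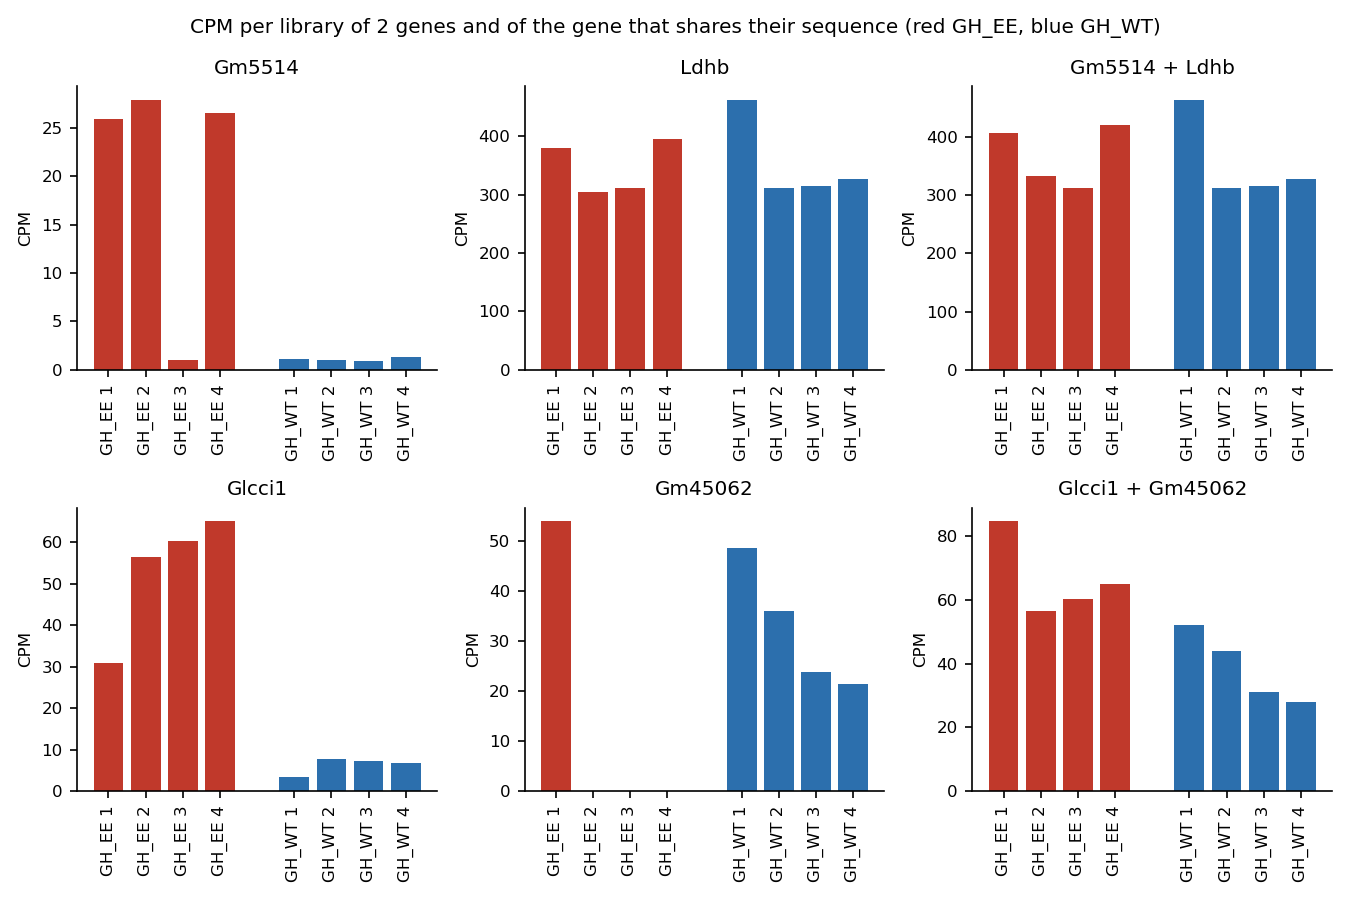
CPM in each GH_EE (red) and GH_WT (blue) library of Gm5514, Ldhb and their sum (upper panels) and of Glcci1, Gm45062 and their sum (lower panels), on axes from 0. Gm5514 stands at 25.9 to 27.9 CPM in 3 GH_EE libraries, and the sum with Ldhb overlaps between groups, while the sum of Glcci1 and Gm45062 is 56.4 to 84.7 CPM in GH_EE and 28.1 to 52 CPM in GH_WT.

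Glcci1, a gene first described as induced by glucocorticoids (chr6:8509600-8597548, plus strand), had the smallest p of the genes with higher values that the rule names. It lay at 30.8, 56.4, 60.3 and 65.1 CPM in GH_EE and 3.39, 7.82, 7.37 and 6.75 CPM in GH_WT, with no overlap. The log2 fold change was 3.07 (SE 0.66, edgeR adjusted p = 0.674), so it did not pass, although DESeq2 gave an adjusted p of 0.00343. Gm45062, an annotated gene on the same strand, overlaps it and shares 5413 bases of a 6200-base Glcci1 transcript without a mismatch. Gm45062 read 54, 0, 0 and 0 CPM in GH_EE and 48.6, 36, 23.8 and 21.4 CPM in GH_WT, the opposite order in 3 GH_EE libraries. Summed, the pair lay at 84.7, 56.4, 60.3 and 65.1 CPM in GH_EE and 52, 43.8, 31.2 and 28.1 CPM in GH_WT. The groups still did not overlap, and the log2 fold change was 0.78 (SE 0.57, edgeR unadjusted p = 0.182).

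Pagr1a and Pcdhga1, also named for a small p, share transcript sequence with neighbours. Pagr1a, a subunit of histone methyltransferase complexes, lay at 26.4, 0.515, 0.369 and 3.8 CPM in GH_EE against 0.169 to 0.343 CPM in GH_WT (log2 fold change 5.00, SE 1.18), and its neighbour Gm42742 matches 1412 of the 1430 bases of the Pagr1a transcript. Summed with Gm42742 and Pagr1b, the values were 30.6, 18.6, 10.8 and 38.7 CPM against 34.8, 8.1, 9.72 and 10.5 CPM, which overlapped (log2 fold change 0.65, SE 0.51). Pcdhga1, a cell adhesion gene of the gamma protocadherin cluster, lay at 99.3 CPM in GH_EE 4 and at 5.12 to 8.8 CPM in the other 7 libraries. The genes of the cluster share their last exons, and another member was high in each other library: Pcdhgb8 at 370, 364 and 355 CPM in GH_EE 1, GH_EE 2 and GH_WT 4, Pcdhgb4 at 371 CPM in GH_EE 3, Pcdhgb1 at 399 CPM in GH_WT 1, Pcdhga9 at 351 CPM in GH_WT 2 and Pcdhga2 at 379 CPM in GH_WT 3. In GH_EE 4 Pcdhgc5 was higher than Pcdhga1, at 336 CPM beside 47.7 to 91.5 CPM in the other 7 libraries. The sum over Pcdhga1 and the genes that share its last exons was 728, 720, 757 and 735 CPM in GH_EE and 742, 742, 738 and 683 CPM in GH_WT (log2 fold change 0.02, SE 0.13). Stat5a, a cytokine signalling factor, lay at 0.489 to 0.884 CPM in GH_EE and 1.27 to 3.35 CPM in GH_WT (log2 fold change -1.49, SE 0.36, edgeR adjusted p = 1), without overlap. It was highest in GH_WT 2 and GH_WT 4, at 3.35 and 2.54 CPM, and its log2 fold change without them was -0.80. Summed with Stat5b, which shares 440 bases at 96.4% identity, it had a log2 fold change of 0.06 (SE 0.16). Stat5b read 29.2 to 40.2 CPM in these libraries, so the sum follows Stat5b whatever Stat5a does.

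Other genes with higher values in GH_EE differed less, and none passed the threshold. Mrps35, a protein of the small mitochondrial ribosomal subunit (chr6:147042764-147073991), lay at 23.8, 22.8, 24.9 and 27.1 CPM in GH_EE against 19.7, 17.8, 18 and 18.9 CPM in GH_WT (log2 fold change 0.40, SE 0.11). Smad3, the transcription factor of TGF-beta signalling (chr9:63646767-63757994), lay at 102, 82.8, 93.4 and 98.4 CPM against 67, 57.6, 68.7 and 73.1 CPM (0.50, SE 0.15). Mettl16, an RNA methyltransferase, lay at 38.2 to 47.4 CPM against 28.4 to 33.5 CPM. In these 3 genes the lowest GH_EE library was above the highest GH_WT library. Slc18b1, a vesicular polyamine transporter, and Zbtb40, a zinc finger protein, had log2 fold changes of 0.56 and 0.66, also without overlap. Nrf1, the nuclear respiratory factor that drives genes of mitochondrial function, lay at 16.2, 15.5 and 15.3 CPM in GH_EE 1 to 3 but at 10 CPM in GH_EE 4, against 7.67 to 11.7 CPM in GH_WT (0.57, SE 0.15). The edgeR adjusted p of these genes was 1.

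Of the genes with lower values in GH_EE, Fbn1 had the smallest p. It encodes fibrillin, a fibre protein of the extracellular matrix (chr2:125300594-125507993, minus strand), and lay at 4.32, 3.68, 5.14 and 3.68 CPM in GH_EE and 6.8, 10, 9.92 and 5.83 CPM in GH_WT. All GH_EE libraries were lower (log2 fold change -0.95, SE 0.19, edgeR adjusted p = 0.388, DESeq2 adjusted p = 0.00314). Pfkfb2, which makes the allosteric activator of glycolysis (chr1:130689182-130729253), lay at 20.2, 25.7, 23.3 and 30.1 CPM against 35.3, 36.1, 33.9 and 38.9 CPM (-0.54, SE 0.12, edgeR adjusted p = 0.674). Rnf220, a ubiquitin ligase (chr4:117271463-117497052), lay at 82.2, 95.4, 111 and 143 CPM against 166, 156, 168 and 157 CPM (-0.58, SE 0.14, edgeR adjusted p = 0.991). GH_Con, which the contrast does not use, stood at 29.9 to 36.0 CPM for Pfkfb2, at 151 to 165 CPM for Rnf220 and at 5.69 to 8.16 CPM for Fbn1. Among the 10 such genes that the rule names, Gpr151, Abhd12b, Igsf1 and Slitrk6 were high in GH_WT 2 and GH_WT 4. Endou, an endoribonuclease, had a log2 fold change of -1.30 at 0.557 to 2.21 CPM in GH_EE and 1.64 to 4.11 CPM in GH_WT.

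Genes of protein folding in the endoplasmic reticulum were higher in GH_EE as values, with none past the threshold. When unfolded proteins collect there, the factors ATF6 and XBP1 switch on chaperones through a promoter element known as ERSE, spelled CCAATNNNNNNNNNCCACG. RefSeq promoter windows of GRCm38.p6 (250 bases before to 50 after the start site) were searched on both strands. Of the 24 tested list members with a window, 5 held the element (20.8%), against 0.137% of all 26994 genes searched. These stretches are shown, 5′ to 3′ on the strand of the gene with the element or its reverse complement in capitals, because they belong to the members whose values follow. They lie at chr2:34772000-34772068 (plus) for Hspa5, chr8:84847050-84847118 (minus) for Calr, chr12:17266466-17266534 (plus) for Pdia6, chr10:86705613-86705681 (minus) for Hsp90b1, 1 of its 2 matches, and chr15:88819495-88819563 (plus) for Creld2.
Hspa5: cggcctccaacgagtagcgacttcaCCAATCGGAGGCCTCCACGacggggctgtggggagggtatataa
Calr: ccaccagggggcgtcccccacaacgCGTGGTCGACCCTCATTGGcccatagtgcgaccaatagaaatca
Pdia6: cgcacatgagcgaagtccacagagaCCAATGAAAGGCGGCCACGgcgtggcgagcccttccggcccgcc
Hsp90b1: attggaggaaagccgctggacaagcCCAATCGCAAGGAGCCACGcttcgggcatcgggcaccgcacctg
Creld2: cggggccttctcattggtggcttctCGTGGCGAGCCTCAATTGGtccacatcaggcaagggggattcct
A match of letters is a description of the window and says nothing of binding in these mice. The list was written from genes of such responses, so its share of matches is no result of these data.

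Of 28 measured heat shock and unfolded protein genes, 26 had a positive log2 fold change, with a list median of 0.20 beside -0.01 for all genes. Of them 8 had an unadjusted p under 0.05, all higher, 0 passed the adjusted threshold, and for 0 members did the groups separate. Over all genes tested, 1.38% were higher at that p. Hspa5, the main chaperone of the endoplasmic reticulum, lay at 398, 222, 212 and 309 CPM in GH_EE and 266, 170, 127 and 161 CPM in GH_WT (log2 fold change 0.65, SE 0.26). Manf, a secreted protein of the same response with neurotrophic activity, lay at 62.1, 45.3, 43.3 and 68.8 CPM against 45.3, 34.9, 34.9 and 31.7 CPM (0.58, SE 0.15). GH_EE 1 and GH_EE 4 were highest for both, and GH_WT 1 stood above the rest of its group and above GH_EE 2 and 3 for Hspa5. Xbp1, a factor of the response, lay at 40.1 to 50.7 CPM against 23.9 to 41.5 CPM (0.59, SE 0.19). Sdf2l1 (0.79), Dnajb11 (0.42), Pdia4 (0.45), Pdia6 (0.42) and Calr (0.35), chaperones and disulfide isomerases of the same compartment, made up the rest of the 8. Hsp90b1 and Creld2 had log2 fold changes of 0.19 and 0.30 with an unadjusted p of 0.179 and 0.204.

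Cytosolic heat shock genes belong to the same list. Hspa8, the constitutive cytosolic chaperone, had a log2 fold change of 0.11, Hsp90ab1 of 0.09, Hsp90aa1 of 0.02 and Dnajb1 of 0.07. Those with a negative value were Atf4 (-0.12) and Chac1 (-0.34), the latter a target of Atf4 in the integrated stress response. Hspa1a and Hspa1b, near-identical copies, had 0.17 and 0.40. The list mean was 6.26, 5.76, 5.79 and 6.30 log2 CPM in GH_EE 1 to 4 and 6.11, 5.77, 5.64 and 5.62 in GH_WT 1 to 4. It was highest in GH_EE 1 and GH_EE 4, both with Y-linked reads, and in GH_EE 2, with Xist reads, it was below GH_WT 1 and GH_WT 2. In a fit with sex as a covariate the list median was 0.20. Without GH_WT 2 and GH_WT 4 the median was 0.13, with 21 members higher and 1 at an unadjusted p under 0.05. Leaving out 1 library at a time gave medians of 0.12 to 0.35.

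Interferon-stimulated genes were lower in GH_EE as values, again with none past the threshold. Type I interferon acts through a complex that holds STAT2 and IRF9 and binds the element ISRE, written here as TTTCNNTTTCNNTTTC with its inner core TTTCNNTTTC. Of the 24 tested members with a promoter window, 5 held the long form (20.8%) and 16 the core (66.7%), which is contained in the long form. Of all genes searched, 0.13% and 3.98% did. Promoter stretches with the long form are shown for members on both sides of an unadjusted p of 0.05, in the same layout. They lie at chr11:48871410-48871475 (minus) for Irgm1, chr4:156200850-156200915 (minus) for Isg15, chr3:142559974-142560039 (plus) for Gbp3, chr8:71537562-71537627 (minus) for Bst2 and chr5:120907505-120907570 (minus) for Oas1a. The Irgm1 and Oas1a stretches run past the start site.
Irgm1: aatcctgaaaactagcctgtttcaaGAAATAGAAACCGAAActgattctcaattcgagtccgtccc
Isg15: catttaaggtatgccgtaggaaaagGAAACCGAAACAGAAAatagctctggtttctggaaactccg
Gbp3: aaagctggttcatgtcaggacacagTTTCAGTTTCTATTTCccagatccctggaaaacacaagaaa
Bst2: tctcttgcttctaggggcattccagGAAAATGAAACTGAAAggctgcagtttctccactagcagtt
Oas1a: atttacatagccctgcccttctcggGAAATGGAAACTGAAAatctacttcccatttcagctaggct
No reading of these promoters was made in the mice. This list, too, was written from genes of the response, and its share of matches is no result of these data.

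Of 35 measured interferon-stimulated genes, 33 had a negative log2 fold change, with a median of -0.50. Of them 4 had an unadjusted p under 0.05, 0 passed the adjusted threshold, and in 9 all 4 GH_EE libraries lay below all 4 GH_WT libraries. Over all genes tested, 2.27% were lower at that p and 2.09% lay wholly below. Ddx58, the cytosolic RNA sensor RIG-I (chr4:40203773-40239828), lay at 4.67, 5.18, 6.44 and 4.66 CPM in GH_EE and 7.79, 8, 8.37 and 8.73 CPM in GH_WT (log2 fold change -0.65, SE 0.27). Irf7, the factor that amplifies interferon production (chr7:141262706-141266481), lay at 1.3, 2.24, 3.44 and 1.56 CPM against 4.94, 3.37, 4.06 and 7.03 CPM (-1.18, SE 0.52). Ifi27, an interferon-induced membrane protein, lay at 13.7, 18.4, 20.8 and 14 CPM against 29.9, 25.1, 23.2 and 22.6 CPM (-0.59, SE 0.27). Irgm1, an immunity-related GTPase, lay at 8.54, 13, 12.2 and 11.3 CPM against 16.6, 13.9, 16.4 and 16.6 CPM (-0.50, SE 0.23). In Ddx58, Ifi27 and Irgm1 the groups did not overlap, and in Irf7 GH_EE 3 reached the lowest GH_WT library. Of members outside the rule for named genes, chosen after their values were seen, Isg15, the ubiquitin-like modifier, lay at 0.56 to 1.28 CPM against 1.29 to 2.09 CPM. The other 5 members without overlap were Irf9, Ifi27l2a, Oasl2, Oas1a and Ifitm3. Those with a positive value were Ifit2 (0.16) and Oas2 (0.15), both lowest in GH_WT 3.

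GH_EE 1 and GH_EE 4 had the lowest interferon values and GH_EE 3 the highest of its group. The list mean was 1.47, 2.01, 2.33 and 1.64 log2 CPM in GH_EE 1 to 4 and 2.44, 2.20, 2.20 and 2.67 in GH_WT 1 to 4, so GH_EE 3 lay within GH_WT. The median stayed between -0.66 and -0.39 when 1 library was left out, was -0.49 without GH_WT 2 and GH_WT 4, with 31 members lower and 0 at an unadjusted p under 0.05, and was -0.55 with sex as a covariate. In bulk tissue, fewer cells of a type and less RNA per cell cannot be told apart. The microglial lists, which mark one cell type that makes and answers interferon, had medians of -0.05 (plaque-associated, 28 genes) and -0.07 (homeostatic, 19 genes). The plaque-associated list mean was 3.46, 4.49, 4.35 and 3.49 log2 CPM in GH_EE 1 to 4 and 3.85, 4.02, 4.42 and 4.32 in GH_WT 1 to 4. In both microglial lists GH_EE 1 and GH_EE 4 were the lowest of GH_EE, as for the interferon list. In GH_WT the order was not the same. The part of microglia in the interferon values was not tested.

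**Figure D3:**
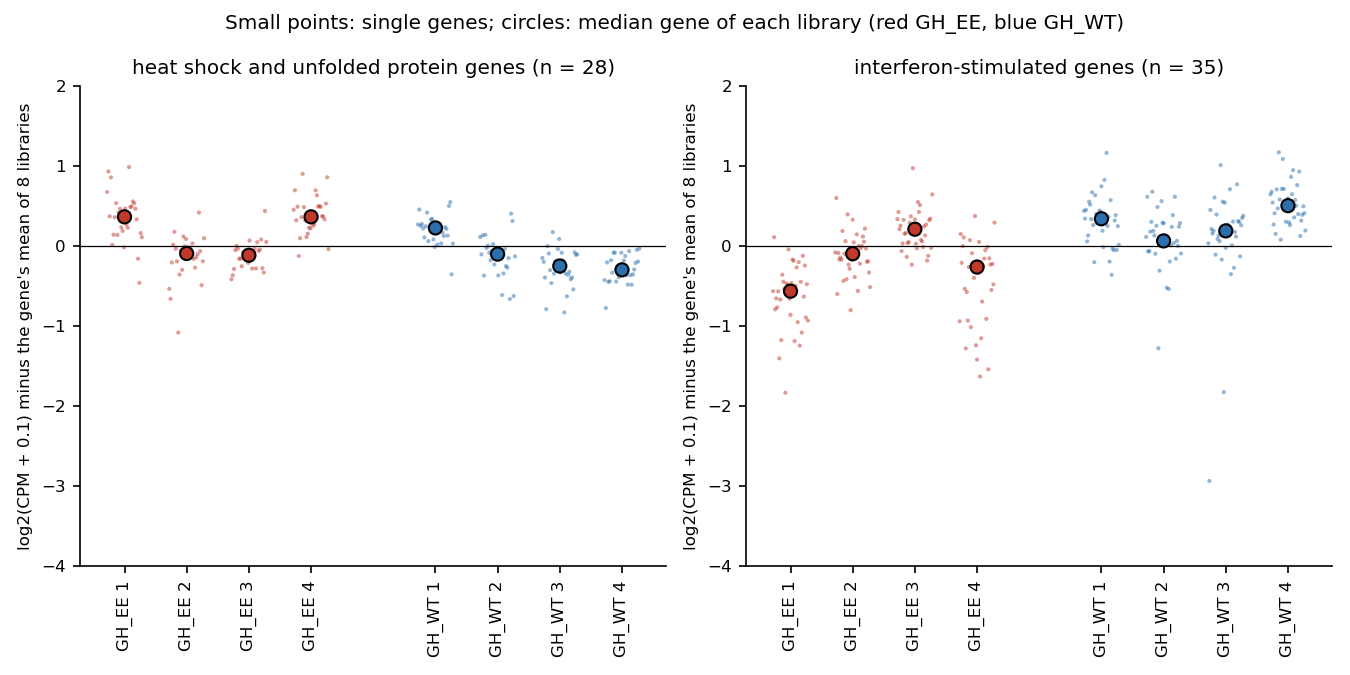
For each measured member of the heat shock and unfolded protein list (left, n = 28) and the interferon list (right, n = 35), log2(CPM + 0.1) minus the gene's mean over the 8 libraries, with small points for genes and circles for the median gene. The chaperone circles are highest in GH_EE 1, GH_EE 4 and GH_WT 1, and the interferon circles are lowest in GH_EE 1 and GH_EE 4.

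Of 19 antigen presentation genes 14 had a negative log2 fold change, with a median of -0.23. Psmb8, an immunoproteasome subunit, lay at 1.86, 2.21, 2.64 and 2.36 CPM in GH_EE and 4.03, 3.42, 3.66 and 3.82 CPM in GH_WT (log2 fold change -0.72, SE 0.33), without overlap and as the 1 member at an unadjusted p under 0.05. Among all genes tested, 2.27% were lower at that p and 2.09% lay wholly below. The class I heavy chain H2-K1 lay at 17.6 to 25.7 CPM against 25.6 to 28.5 CPM. Its partner B2m, at 80.8 to 116 CPM against 102 to 127 CPM, had a log2 fold change of -0.17 (SE 0.22).

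Genes of cholesterol supply were slightly lower in GH_EE as values: 22 of 26 had a negative log2 fold change and the median was -0.13, or -0.13 without GH_WT 2 and GH_WT 4. In all, 3 had an unadjusted p under 0.05, each lower, beside 2.27% of all genes tested. Insig1, which holds the sterol sensor in the endoplasmic reticulum, lay at 58.2, 92.3, 89.1 and 69.2 CPM in GH_EE and 93.5, 119, 118 and 93.6 CPM in GH_WT (-0.46, SE 0.16), without overlap. Srebf1, a transcription factor of lipid synthesis and another of the 3, had -0.26 (SE 0.12). GH_EE 1 and GH_EE 4 were the lowest libraries for both genes. The synthesis enzyme Hmgcs1 had -0.07 (SE 0.19).

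Of 20 blood-brain barrier genes 16 had a negative log2 fold change, and 0 passed the threshold. Slco1a4, an organic anion transporter of brain endothelium (chr6:141805440-141856199), lay at 36.8, 50.4, 54.7 and 34.6 CPM in GH_EE and 57.8, 65.8, 63.1 and 76.6 CPM in GH_WT (-0.58, SE 0.15, edgeR adjusted p = 1). Abcg2, an efflux pump, lay at 18.6, 16.4, 16 and 19.1 CPM against 23.3, 21.3, 21.7 and 21.3 CPM (-0.32, SE 0.11). Both were without overlap, and Abcb1a, the P-glycoprotein pump, had -0.35 (SE 0.17). These 3, all transporters, were the members at an unadjusted p under 0.05, where 2.27% of all genes tested were lower. The tight junction gene Cldn5 (-0.04) and the endothelial adhesion genes Pecam1 (-0.01) and Cdh5 (0.00) had values near 0. The list median was -0.11, and -0.05 without GH_WT 2 and GH_WT 4.

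Markers of neighbouring regions and tissues differed between libraries of 1 group. Of 20 thalamus and habenula markers, 20 were lower in GH_EE, with a median of -1.88. At an unadjusted p under 0.05 there were 18 of them, beside 2.27% of all genes tested. Tcf7l2, a factor of thalamic neurons, lay at 7.72, 3.42, 5.28 and 4.07 CPM in GH_EE and 3.92, 38, 1.94 and 56.4 CPM in GH_WT. Gpr151, a receptor of habenula neurons, lay at 0.371, 0.824, 0.256 and 0.354 CPM against 0.395, 10.2, 1.14 and 6.45 CPM. Slc17a6, the vesicular glutamate transporter of subcortical neurons, lay at 32.5 to 45.6 CPM in GH_EE and at 43.9, 117, 31.7 and 113 CPM in GH_WT. In all 3 genes GH_WT 2 and GH_WT 4 were the high libraries, and GH_WT 1 and GH_WT 3 lay within or close to the range of GH_EE. Without these 2 libraries the list median was 0.01, with 11 members higher, 9 lower and 0 at an unadjusted p under 0.05. Members of other lists had the same 2 high libraries, such as Chrna3 and Chrnb4 among acetylcholine receptors, Calb2 among interneuron markers and Slc17a6 among presynaptic genes. Without those libraries the log2 fold change went from -3.44 to -0.23 in Chrna3 and from -4.48 to 1.41 in Chrnb4. It went from -2.07 to 0.01 in Calb2 and from -1.02 to 0.00 in Slc17a6.

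Choroid plexus genes were lower in GH_EE in 19 of 19 cases with a median of -1.31, and without GH_WT 2 and GH_WT 4 the median was 1.28. Ttr, the transthyretin of choroid plexus, lay at 47, 21.4, 2.21 and 1.83 CPM in GH_EE and 2.99, 321, 0.714 and 37.8 CPM in GH_WT. The meningeal median was -0.14 with all libraries and 0.49 without those 2. Haemoglobin and other blood genes had a median of -1.51, or -1.84 without those 2, and -0.64 to -2.02 when 1 library was left out. Hbb-bs lay at 3.82, 0.0257, 2.3 and 4.42 CPM in GH_EE and 17.9, 4.85, 5.11 and 5.66 CPM in GH_WT, and its reads can be split with those of Hbb-bt.

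Striatal markers had the opposite sign, with 17 of 19 higher in GH_EE and a median of 0.69, or 0.47 without GH_WT 2 and GH_WT 4 and 1.32 without GH_WT 3. Penk, the enkephalin precursor of indirect pathway neurons, lay at 157, 179, 236 and 269 CPM in GH_EE and 39.5, 79.7, 218 and 110 CPM in GH_WT (0.91, SE 0.41). Drd2, the D2 dopamine receptor, lay at 28.6, 30.6, 54 and 62.6 CPM against 3.81, 12.4, 52.7 and 21.8 CPM. GH_WT 3 was at the level of GH_EE in both, and GH_WT 1 was the lowest library. The list mean was 5.53 to 6.33 log2 CPM in GH_EE and 3.77, 4.90, 6.35 and 5.26 in GH_WT 1 to 4. Pyramidal and layer genes, by contrast, had a mean of 5.60 to 5.66 log2 CPM in GH_EE and 5.48 to 5.71 in GH_WT. Genes of other lists had the same high GH_WT 3 library: Mme, the amyloid-degrading peptidase neprilysin, lay at 18.3, 16.1, 26 and 31.3 CPM against 3.39, 6.8, 23.4 and 5.5 CPM, and Htr1b, a serotonin receptor, at 33.6, 19.2, 25.8 and 44.8 CPM against 11.1, 13, 23.7 and 12.8 CPM. Striatal markers were read beside them as above, and their part in those values was not tested.

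**Figure D4:**
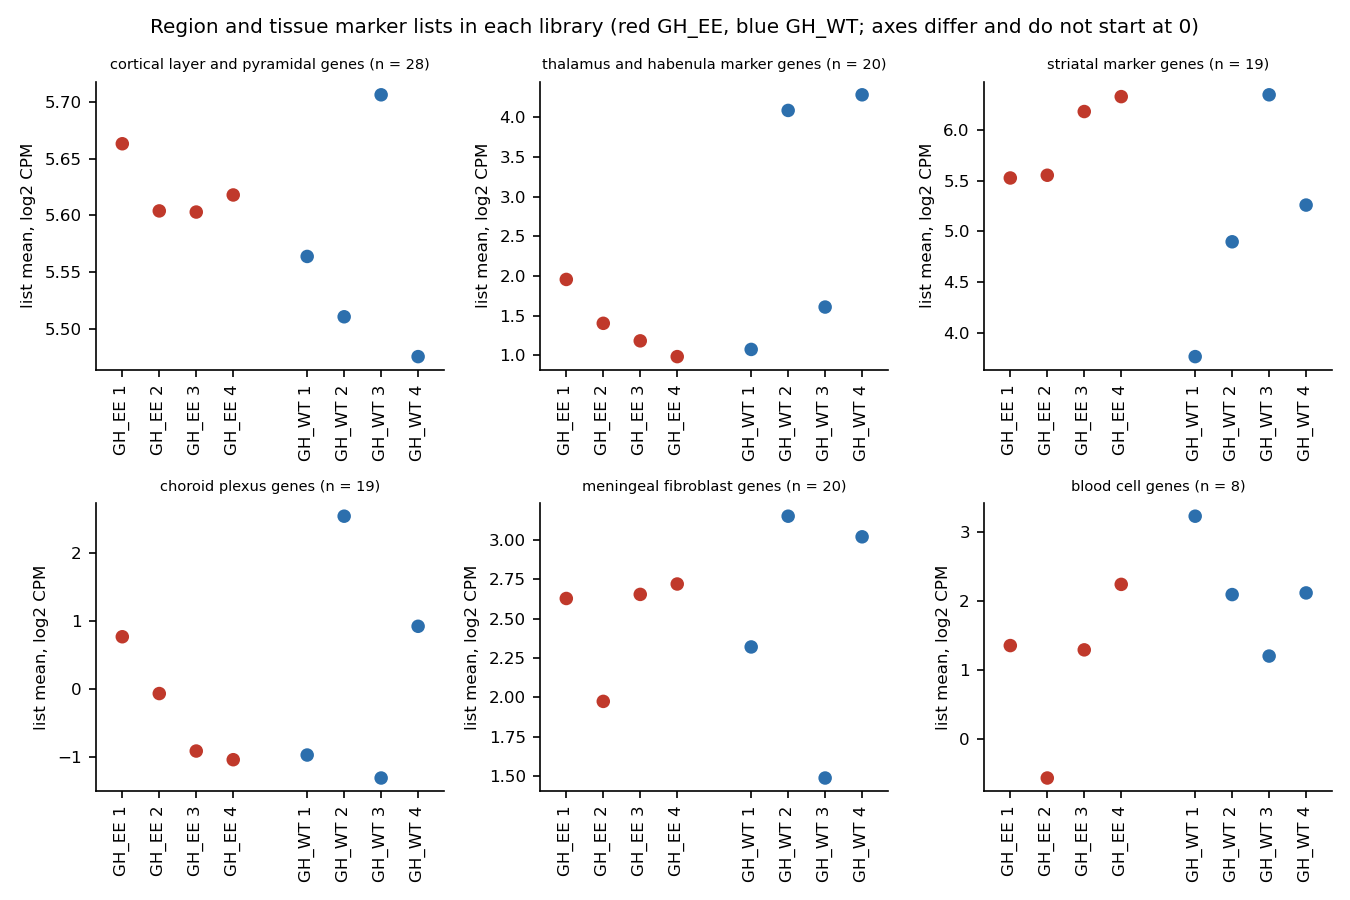
Mean log2 CPM of 6 marker lists in each GH_EE (red) and GH_WT (blue) library, on axes that differ and do not start at 0. Thalamus and habenula genes stand at 4.09 and 4.28 in GH_WT 2 and GH_WT 4 and at 1.96 or less elsewhere, striatal genes at 3.77 in GH_WT 1, and cortical genes between 5.48 and 5.71 in all 8 libraries.

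Of 20 immediate early transcription factors 10 were higher and 10 lower, with a median of 0.01 and 0 at an unadjusted p under 0.05. Fos lay at 41.7, 33.9, 29.5 and 23.3 CPM in GH_EE and 41.6, 54.4, 35 and 26.3 CPM in GH_WT (log2 fold change -0.29, SE 0.32). Arc, which acts at active synapses, lay at 401, 311, 221 and 253 CPM against 422, 363, 397 and 187 CPM (-0.21, SE 0.40). Bdnf, the neurotrophin most often linked to enrichment, lay at 34.4, 27.9, 25 and 23 CPM against 37.5, 30.4, 26.3 and 18.6 CPM (-0.03, SE 0.19). Of 24 activity-regulated effector genes 12 were higher, with a median of 0.00, and of 24 neurotrophins, receptors and growth factors 13 were higher, with a median of 0.01. The groups overlapped in Fos, Arc and Bdnf, and GH_EE lay within or close to the range of GH_WT in each. Oxtr, the oxytocin receptor of social behaviour, lay at 5.22 to 6.31 CPM in GH_EE and 4.4 to 5.92 CPM in GH_WT (0.24, SE 0.23).

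Of 19 clock genes, 1 had an unadjusted p under 0.05, higher in GH_EE, beside 1.38% of all genes tested. Per2, a repressor of the circadian clock, lay at 93.2, 52.4, 50 and 91.5 CPM in GH_EE and 51.8, 40.9, 47.7 and 45.4 CPM in GH_WT (log2 fold change 0.63, SE 0.25), high in GH_EE 1 and GH_EE 4. The list median was 0.05. The glucocorticoid response list had a median of -0.04 with 0 of 20 members at an unadjusted p under 0.05. In 3 of its members GH_EE lay wholly below GH_WT, beside 2.09% of all genes tested. Sgk1, a kinase induced by the hormone, lay at 130, 92.3, 86.6 and 133 CPM against 167, 137, 162 and 167 CPM (-0.52, SE 0.27). Nfkbia, the inhibitor of NF-kappaB, lay at 15.6 to 18.9 CPM against 19.9 to 27.2 CPM, and Arrdc2 at 8.43 to 11.8 CPM against 12.2 to 13.9 CPM. Fkbp5, another target of the hormone receptor, lay at 34.8, 27.5, 27.9 and 65.3 CPM against 30.6, 27.4, 33.3 and 39.8 CPM (0.25, SE 0.37).

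Glial genes tied to amyloid pathology overlapped between the groups and spread widely within GH_EE. Cst7, a cystatin that plaque-associated microglia make, lay at 0.424, 7.8, 6.84 and 0.53 CPM in GH_EE and 1.44, 3.17, 5.37 and 4.41 CPM in GH_WT (log2 fold change 0.12, SE 1.05). Trem2, the microglial receptor that senses lipids at plaques, lay at 6.45, 15, 15.5 and 7.25 CPM against 11.9, 11.5, 17.7 and 15.4 CPM (-0.36, SE 0.44). Gfap, the filament of reactive astrocytes, lay at 119, 250, 295 and 117 CPM against 170, 189, 191 and 218 CPM (0.02, SE 0.44). In all 3 genes GH_EE 2 and GH_EE 3, the libraries with Xist reads, were high and GH_EE 1 and GH_EE 4, those with Y-linked reads, were low, and human APP followed the same order. In GH_WT the libraries with Xist reads, 3 and 4, were above the other pair for each of these glial genes too, by less. Human APP did not follow that order in GH_WT, at 3450 and 2350 CPM in GH_WT 3 and 4 and 3000 and 2770 CPM in GH_WT 1 and 2. P2ry12, a receptor of homeostatic microglia, lay at 25.6, 33.5, 31.7 and 19.5 CPM against 23.2, 25.5, 31.1 and 36 CPM (-0.07, SE 0.29).

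Of 28 plaque-associated microglial genes 19 were lower, with a median of -0.05 and 0 at an unadjusted p under 0.05, and of 20 complement genes 11 were higher, with a median of 0.10. Homeostatic microglial genes had 1 member at an unadjusted p under 0.05, Olfml3 (-1.06, SE 0.46), at 3.61 to 6.67 CPM in GH_EE and 13.9, 4.92, 6.03 and 16.8 CPM in GH_WT. Reactive astrocyte genes had a median of -0.05, or 0.20 without GH_WT 2 and GH_WT 4, and 1 such member, Emp1, a membrane protein, at 3.08, 2.14, 2.3 and 4.74 CPM against 0.79, 1.77, 1.09 and 2.09 CPM (1.09, SE 0.38), without overlap. At that p, 2.27% of all genes tested were lower and 1.38% higher, and 1.78% lay wholly above. Myelin genes had 17 of 25 lower with a median of -0.09, or 0.04 without GH_WT 2 and GH_WT 4. Mbp, the main protein of compact myelin, lay at 465 to 599 CPM in GH_EE and 525 to 673 CPM in GH_WT (-0.15, SE 0.16).

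Among 26 genes that make or clear amyloid the median was -0.02. Ide, the insulin-degrading enzyme, which also cleaves amyloid peptide, lay at 97.1, 60.6, 92.3 and 88.8 CPM in GH_EE and 124, 122, 121 and 126 CPM in GH_WT (log2 fold change -0.54, SE 0.24), without overlap and as the 1 member at an unadjusted p under 0.05. Adam10, the alpha-secretase, lay at 98.4 to 107 CPM in GH_EE and at 47.9, 50.7, 96.6 and 92.5 CPM in GH_WT (0.50, SE 0.24), without overlap, GH_WT 1 and GH_WT 2 being far lower than GH_WT 3 and GH_WT 4. Of the 26 genes, 2 lay wholly above and 2 wholly below GH_WT, beside 1.78% and 2.09% of all genes tested. At an unadjusted p under 0.05, 2.27% of all genes tested were lower. Mapt, which encodes tau, lay at 190, 557, 540 and 545 CPM against 597, 542, 163 and 124 CPM, with 1 low library in GH_EE and 2 in GH_WT. The secretase Bace1 had -0.12 (SE 0.22) and the clearance receptor Lrp1 0.09 (SE 0.21).

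Synaptic lists had medians near that of all genes: 0.05 for 44 glutamate receptor and scaffold genes, 0.03 for 40 presynaptic genes, 0.02 for 35 inhibitory genes and 0.04 for 78 potassium channel genes. Grm2, a presynaptic glutamate autoreceptor, lay at 33.3, 41.9, 41.3 and 29.9 CPM in GH_EE and 46.9, 50.7, 44.7 and 51.1 CPM in GH_WT (-0.40, SE 0.16), without overlap. Kcnip3, a calcium sensor that binds potassium channels, lay at 143, 147, 132 and 135 CPM against 115, 96.6, 126 and 119 CPM (0.29, SE 0.11). Tac2, the neurokinin B precursor, lay at 3.24 to 4.37 CPM against 4.54 to 8.8 CPM (-0.74, SE 0.29). Its log2 fold change was -0.38 without GH_WT 2 and GH_WT 4, its 2 highest libraries. Nuclear oxidative phosphorylation genes (77 genes, median -0.01), mitochondrially encoded genes (13, -0.04) and ribosomal protein genes (83, -0.06) had 0 members at an unadjusted p under 0.05.

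**Figure D5:**
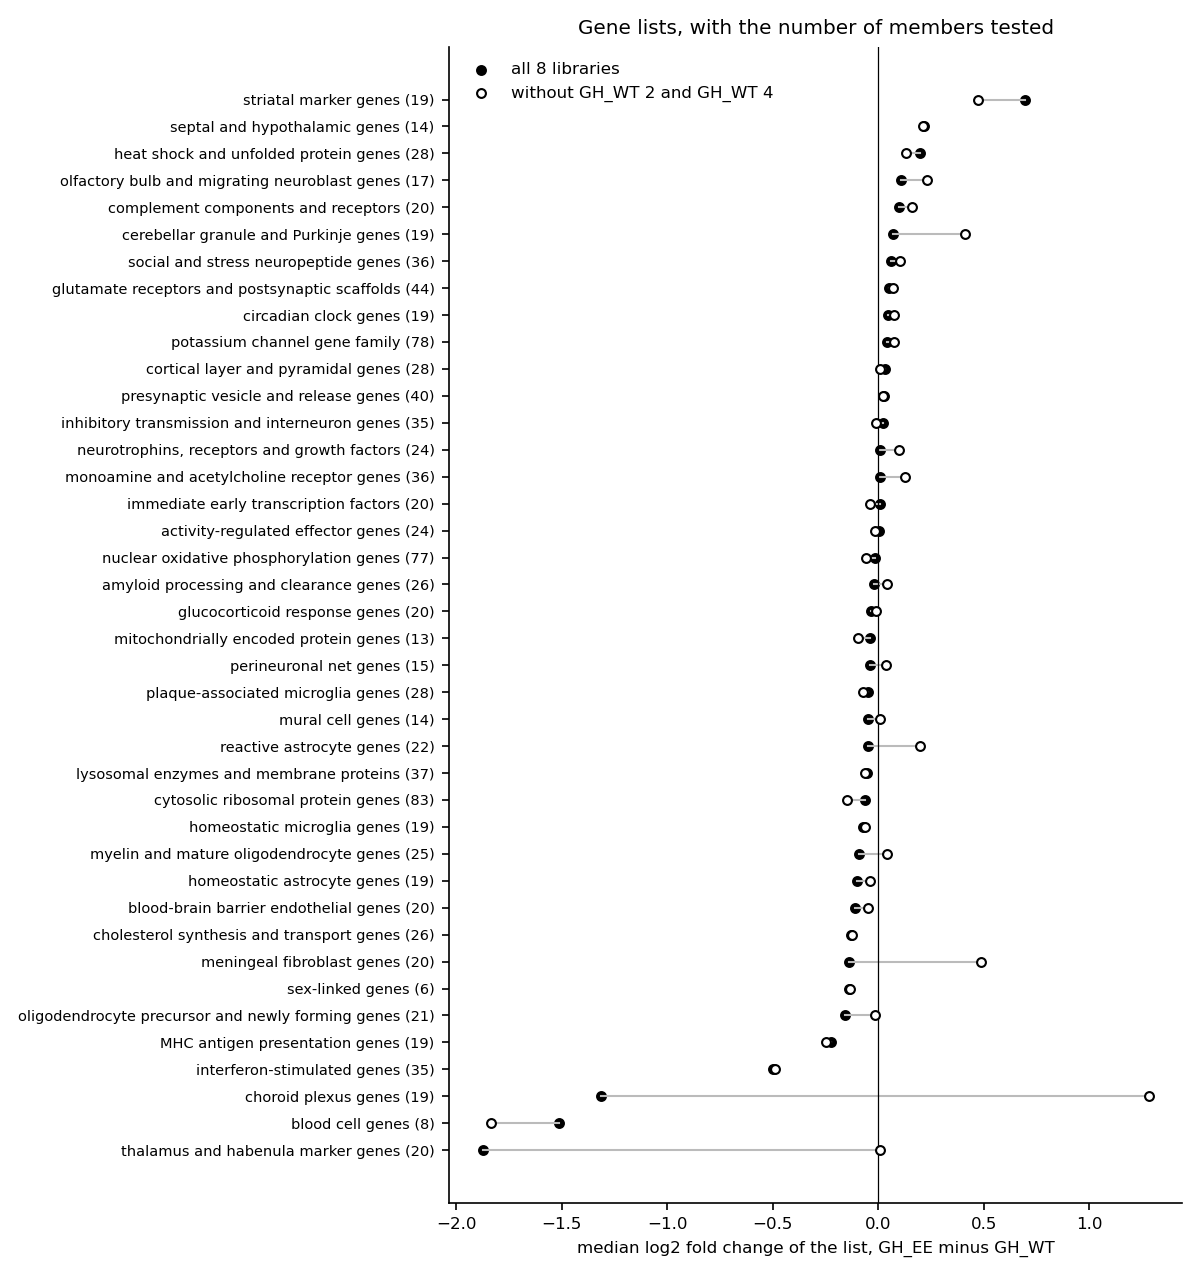
Median log2 fold change (GH_EE minus GH_WT) of each of the 40 gene lists, with filled circles for all 8 libraries and open circles without GH_WT 2 and GH_WT 4, and the number of members tested in parentheses. The interferon list stands at -0.50 and -0.49 and the cholesterol list at -0.13 in both, while thalamus and habenula genes go from -1.88 to 0.01 and choroid plexus genes from -1.31 to 1.28.

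The same contrast in isolated mice, SI_EE minus SI_WT, used 8 libraries that the GH contrast does not. It called 0 genes with edgeR, with 2070 at an unadjusted p under 0.05 (10.2%), 86 with DESeq2 and 0 with limma-voom, and SI_EE 1 in it held cerebellar transcripts. The difference between the housings called 0 genes with edgeR, with 1438 at an unadjusted p under 0.05 (7.06%), 39 with DESeq2 and 0 with limma-voom. The chaperone list had a median of 0.20 in GH and 0.11 in isolated mice, with 21 of 28 members higher there, or 26 of 28 without SI_EE 1. The interferon list had -0.50 in GH and 0.14 in isolated mice, where 24 of 35 members were higher, and 4 members had an unadjusted p under 0.05 for the difference. The smallest p for the difference among genes that the rule names belonged to Bmp7, Gpr151, Agt, Lhx9 and Dcn. Bmp7, a growth factor of meninges and choroid plexus, had -0.58 in GH and 0.83 in isolated mice, and Agt, angiotensinogen, lay at 3.81, 27.5, 10.5 and 48.7 CPM in GH_WT. For all 5 genes the 2 highest libraries of GH_WT were again GH_WT 2 and GH_WT 4. In the isolated arm SI_EE 1 stood highest for Agt, at 86.6 CPM beside 8.63 to 12.4 CPM in the other SI_EE libraries, for Lhx9, at 20.8 CPM beside 0 to 4.86 CPM, and for Dcn, at 18.8 CPM beside 5.91 to 6.94 CPM. Gm5514 had a log2 fold change of 0.10 in isolated mice, against 4.21, and the difference had an edgeR adjusted p of 0.425.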

How the data were processed

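Total RNA of the medial prefrontal cortex was sequenced in 24 libraries, per the labels, of which GH_EE and GH_WT are compared here. The authors deposited raw read counts per gene, whole numbers with a different total in each library. Their build was mm10, per the submitters' processing notes. Which aligner, counter, annotation and strand setting they used is not given in the sources used here. Of 56750 entries, 91.8% had a symbol, and the rest held 0.421% of reads. Positions are from GENCODE M21 (GRCm38, the assembly of mm10). 0 count columns lacked a named sample.

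Counts were tested with edgeR 4.0.16 in R 4.3.3 (quasi-likelihood, TMM factors, filterByExpr on group, robust, all 24 libraries in 1 fit, no covariate, Benjamini-Hochberg adjusted p under 0.05), after a check on simulated counts. CPM was taken on TMM-adjusted totals, and on the log2 scale 2 counts were added first. An error is the SD of 4 libraries, or the SE where so written. Alternatives were DESeq2 1.42.0, limma-voom (limma 3.58.1), RLE factors, no filter, these 8 libraries alone, sex or replicate number as a covariate, and fits without each library, without GH_WT 2 and 4, or without SI_EE 1. A fit with the reads of genes that share sequence summed was added after the data were seen, with transcripts aligned by BLAST 2.17.0 (95% identity or more over at least 200 bases) and the other gamma protocadherin A genes added from the annotation. Same-numbered GH_EE and GH_WT libraries had correlations of their deviations of 0.0231, 0.0289, 0.0277 and -0.0983, so the numbers were not taken as pairs.

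The groups, the 40 gene lists and the rule for named genes were chosen with earlier results of these data known. By the rule, up to 10 genes each way are named (mean of 1 CPM or more, no Gm, Rik or clone symbols), past the threshold or else by smallest p, with up to 4 members per list, 5 genes for the housing difference, region markers, and a set of transgene, glial and activity genes. Further list members were named after their values were seen. No set test was run. Promoters are RefSeq's for GRCm38.p6. Some genes are not reported here.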

Additional observations from a re-analysis of the deposited data

Results flagged for a closer look

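In 146 groups of 4 values, from 33 genes and 40 list means in GH_EE and in GH_WT, 8 had 1 library apart from the other 3. The gap was at least 0.83 of the range of the 4 values. A rate of 1 in 20 would give about 7. The flagged genes were named for their p in these same libraries, so that number is no measure of chance here. All 8 lay in GH_EE. Gm5514 was at 0.965 CPM in GH_EE 3, with the other 3 libraries at 25.9 to 27.9 CPM. Pagr1a was at 26.4 CPM in GH_EE 1 and at 0.369 to 3.8 CPM in the others, and Pcdhga1 at 99.3 CPM in GH_EE 4 and at 5.12 to 8.8 CPM in the others. Nrf1 was at 10 CPM in GH_EE 4, under 15.3 to 16.2 CPM in the rest. Stat5a was at 0.489 CPM in GH_EE 2, under 0.822 to 0.884 CPM. Abhd12b was at 0.133 CPM in GH_EE 1, where 3 counts are 0.0796 CPM, and at 0 in the other 3 libraries of the group. This value is near the floor. The meningeal list mean was 1.97 log2 CPM in GH_EE 2 and 2.63 to 2.72 in the others. The mean of septal and hypothalamic genes was 1.52 log2 CPM in GH_EE 3 and 1.26 to 1.31 in the others.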

How the results depend on the processing

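The count of genes past the threshold in GH_EE minus GH_WT was 1 (Gm5514) with RLE factors, without the filter, with sex as a covariate, with the replicate block and without SI_EE 1. It was 3 in the fit of these 8 libraries alone (Amigo1, Ppp1r26 and 1 gene without a symbol), 7 with DESeq2, 0 with limma-voom, 0 without GH_WT 2 and GH_WT 4 and 0 with reads of genes that share sequence summed. Leaving out 1 library gave 0 to 2: 0 without GH_WT 2, GH_WT 3 or GH_WT 4, and 2 without GH_WT 1, where Gpr151 (adjusted p = 0.0498) was added. DESeq2 called 86 genes in SI_EE minus SI_WT and 39 for the difference between the housings, and leaving out 1 library gave 0 to 1 in each, the 1 being without SI_EE 3 or SI_EE 4 and without GH_EE 3. The replicate block left 631 genes at an unadjusted p under 0.05 in place of 742 and changed no call. The human APP difference ran from -779 to -99.5 CPM when 1 library was left out.

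Of the list medians under the 18 alternatives, 712 of 720 moved by less than the spread between libraries, the larger SD of the list mean within GH_EE or GH_WT. The other 8 were 4 without GH_WT 2 and GH_WT 4 (thalamus and habenula, choroid plexus, amyloid and blood-brain barrier genes) and 4 of the perineuronal net genes when 1 library was left out. GH_WT 2 and GH_WT 4 are part of that spread, so a list that rests on them can count as unmoved. The meningeal list did, with a median of -0.14 with all libraries and 0.49 without those 2. No called direction was reversed, but the fit on all 24 libraries called only Gm5514. Among 1384 values of the 77 named genes, 8 changed sign by at least the SD within each group. They were Stat5a when summed with Stat5b, and Tcf7l2, Zic4, Calb2, Slc17a6, Chrnb4, Lhx9 and Dcn without GH_WT 2 and GH_WT 4. Smaller changes of sign were not counted. Depth does not limit genes at several CPM, where 3 counts are 0.075 to 0.0884 CPM, but the spread between 4 libraries does.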

Other observations

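Some genes stood at 2 separate levels across the series. Whether the level goes with the group was not tested. Among 10255 genes with a mean of at least 10 CPM over the 24 libraries, 118 (1.15%) had a gap over 0.7 log2 between neighbouring libraries, at least 3 libraries on each side and an SD under 0.45 log2 within each side. Rac1, a small GTPase, lay at 293, 304, 61.7 and 290 CPM in GH_EE and 278 to 340 CPM in GH_WT. Disp2 lay at 59.3, 56.4, 343 and 304 CPM in GH_EE and 342, 381, 57.4 and 360 CPM in GH_WT. Cd47, a signal that protects cells from phagocytosis, lay at 72.8, 223, 256 and 60.3 CPM in GH_EE and 244, 233, 241 and 82.7 CPM in GH_WT. Hnrnpa3, an RNA-binding protein, lay at 16.6 to 24 CPM in GH_EE and 144, 26.6, 142 and 18.7 CPM in GH_WT. None of the 77 named genes was among the 118. Those with a mean under 10 CPM, Gm5514, Pagr1a and Pcdhga1 among them, were not examined, so their absence says nothing of their levels. These genes were chosen after their values were seen, and a fold change of such a gene depends on how many libraries of each group stood at each level.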
